A study of Danio rerio with 6 samples.

Results

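The genes described here are 8 markers of the zebrafish pronephros, the embryonic kidney: the podocyte genes wt1a, wt1b and nphs1, the early kidney factor lhx1a, and the tubule transporter genes slc20a1a, slc4a4a, slc12a1 and slc12a3. They were matched by symbol, and each of the 8 has 1 entry among the 32057 genes of the deposited count table. The 8 genes and the lists below were chosen with earlier results of these data known. All 8 were among the 19889 genes that passed the low-count filter. The counts come from poly-A RNA sequencing of single whole zebrafish (Danio rerio) embryos, frozen at 30 hours post fertilisation (hpf), with 1 library per embryo. Of the 6 embryos, 3 are labelled 3etv, which the series describes as triple mutants of the Pea3 group of ETS transcription factors, and 3 are labelled WT. Pea3 factors act downstream of fibroblast growth factor signalling. The labels used here name neither the 3 mutated genes nor their alleles, and they give no clutch, parents or treatment. Embryos are called by their titles, MUT301, MUT302 and MUT303 in 3etv and WLD301, WLD302 and WLD303 in WT, and a number that both groups share marks different embryos.

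The zebrafish pronephros is a pair of nephrons that share a glomerulus at the midline, where podocytes filter the blood. Behind the glomerulus, each tubule is divided into proximal segments, which recover bicarbonate, phosphate and organic solutes, and distal segments, which recover salt. Multiciliated cells scattered along the tubule move the fluid towards the cloaca. In zebrafish, etv4 and etv5a are known to act in the choice of the multiciliated fate in this tubule. Most of the 8 genes are also transcribed outside the kidney, and lhx1a in particular marks many neurons of the brain and spinal cord.

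The libraries held from 17570505 to 19600706 counts in genes in 3etv and from 21516892 to 25512862 in WT, so every 3etv library was shallower than every WT library. Values are given as CPM, counts relative to library size after TMM scaling. In CPM, 3 counts came to 0.151 to 0.177 in 3etv and to 0.117 to 0.138 in WT, and all 8 genes were above it in every library. A gene is called here when edgeR's quasi-likelihood test, adjusted by Benjamini-Hochberg over all 19889 genes, gave a p under 0.05. As a check of the labels, the Pea3 gene etv5a had 392, 312 and 344 counts in 3etv and 836, 1021 and 853 in WT, and etv4 and etv5b were also lower in every 3etv embryo. The Pea3 gene etv1 went the other way, at 6.31, 6.95 and 6.82 CPM in 3etv and 5.15, 5.56 and 5.75 CPM in WT, and was not called (log2 fold change 0.28, edgeR adjusted p = 0.191). Since the mutated genes are not named, these levels do not show which ones they are. No label says that the embryos of a group came from separate crosses, so p-values measure the spread between these embryos.

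Of the 8 genes, 4 were lower in 3etv embryos: wt1a and the transporter genes slc12a1, slc12a3 and slc4a4a, by between 1.75-fold and 3.27-fold. One gene, lhx1a, was higher, by 1.31-fold, while wt1b, nphs1 and slc20a1a were not called. Across all genes tested, 26.0% were called, 13.5% lower and 12.6% higher in 3etv. Because of how the 8 genes and the lists were chosen, setting them beside all genes describes them and is not a test. The median log2 fold change of the 8 was -0.41, and that of all tested genes was -0.0068. In 6 of the 8 genes the ranges of the groups did not overlap, against 42.9% of all tested genes: 4 had every 3etv embryo below every WT embryo (21.2% of all genes) and 2 had every 3etv embryo above (21.7%). Fewer cells of a type and less RNA per cell cannot be told apart in whole embryos.

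**Figure D1:**
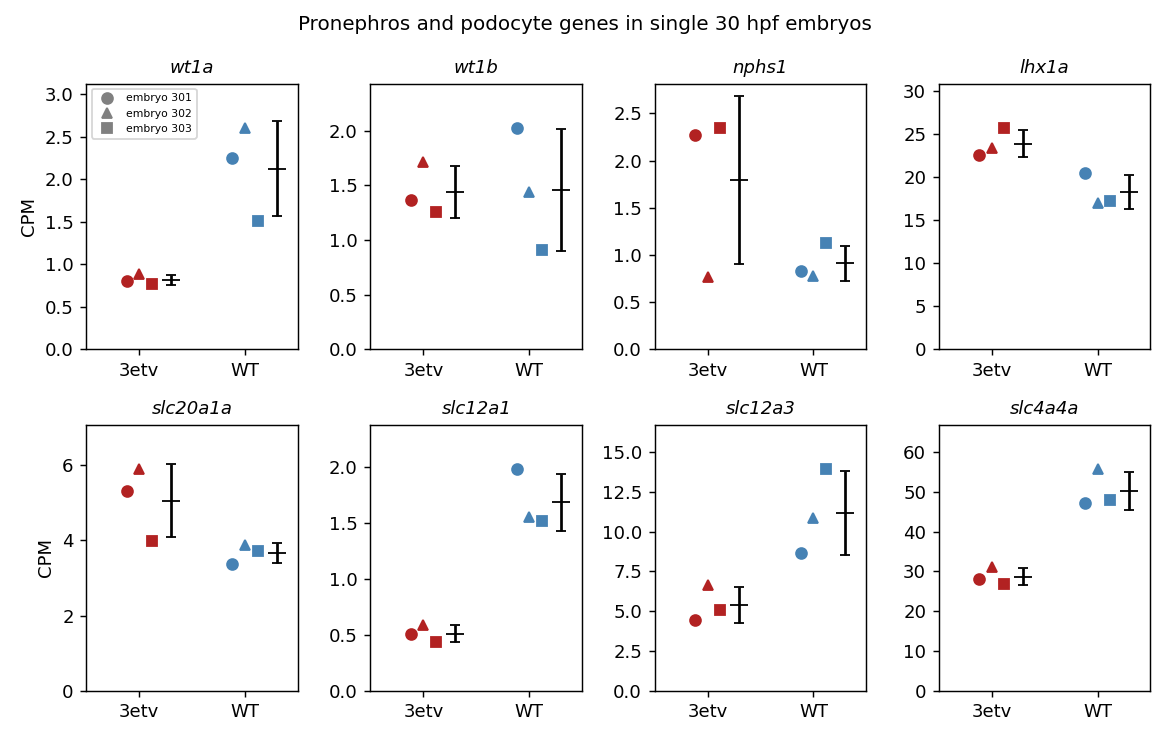
CPM of each of the 8 genes in every library (points, 1 per embryo, with a marker for each embryo number), 3etv on the left and WT on the right; the black bar is the mean with its SD over 3 embryos, and each panel has its own axis from 0. The 3etv points of wt1a, slc12a1, slc12a3 and slc4a4a all lie below the WT points, and nphs1 has 1 low 3etv embryo, MUT302.

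Of the podocyte genes, only wt1a was called with all embryos in the fit. Wt1a is a zinc-finger transcription factor needed for podocyte formation. Its transcript was at 0.808, 0.884 and 0.764 CPM in the 3etv embryos, against 2.26, 2.61 and 1.51 CPM in the WT embryos, which corresponds to 16, 15 and 14 counts in 3etv and 49, 67 and 35 in WT. Every 3etv embryo was below every WT embryo, and the 3etv embryos lay close together. The level of wt1a was 2.59-fold lower in 3etv (95% interval from 1.62 to 4.14, log2 fold change -1.37 ± 0.312 (SE), edgeR adjusted p = 0.00706). The coefficient of variation (CV) of wt1a among 3etv embryos, 7.42%, was under the 25.8% that counting error alone gives at this depth. Among WT embryos its CV was 26.2%, against 14.1% from counting error.

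The paralog wt1b, also a podocyte factor, was at 1.36, 1.71 and 1.26 CPM in 3etv and at 2.03, 1.44 and 0.909 CPM in WT. All 3etv values of wt1b lay inside the WT range. It averaged 1.44 ± 0.237 CPM in 3etv and 1.46 ± 0.559 CPM in WT (SD, n = 3 each), and it was not called (edgeR log2 fold change -0.01, 95% interval from -0.73 to 0.70, adjusted p = 0.98). That interval is wide and holds a change of up to 1.63-fold higher or 1.66-fold lower in 3etv. The CV of wt1b among WT embryos was 38.3%, against 17.1% from counting error. The ratio of wt1a counts to wt1b counts within a library, in which scaling cancels, was 0.593, 0.517 and 0.609 in 3etv and 1.11, 1.81 and 1.67 in WT. The ratios of the groups did not overlap.

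Nephrin, the product of nphs1, is an adhesion protein of the slit diaphragm between podocyte foot processes. The nphs1 transcript was at 2.27, 0.766 and 2.35 CPM in 3etv and at 0.828, 0.778 and 1.12 CPM in WT. Embryos MUT301 and MUT303 were above every WT embryo, while embryo MUT302, with 13 counts, was just below the lowest of them. The CV of nphs1 in 3etv was 49.7%, against 17.2% from counting error, the widest spread of the 8 genes in either group. With all embryos, nphs1 was not called (edgeR log2 fold change 0.99 ± 0.396 (SE), adjusted p = 0.0827). Without embryo MUT302 it was called higher in 3etv, at 1.35 on the log2 scale (edgeR adjusted p = 0.0154). Embryo MUT302 did not stand apart in this way for wt1a or wt1b, for which it had the highest of the 3etv values.

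Other genes of the glomerulus list mostly did not pass the test. Of 19 listed symbols, 20 entries were in the table, all 20 were tested, 2 were called lower (10%, against 13.5% of all tested genes) and 1 higher (5%, against 12.6%), and the list's median log2 fold change was -0.05. The lowered genes were col4a3 and lamb2, a collagen IV chain and a laminin chain of the glomerular basement membrane that also serve other basement membranes. The transcript of col4a3 was 1.79-fold lower in 3etv (25.4 ± 0.905 CPM in 3etv and 45.4 ± 5.24 CPM in WT, edgeR adjusted p = 0.000167), and that of lamb2 was 1.42-fold lower (edgeR adjusted p = 0.00685). One of the entries with the symbol ptpro, a receptor tyrosine phosphatase of podocytes and neurons, was called higher (ENSDARG00000110470, log2 fold change 0.39, edgeR adjusted p = 0.0186), and the other entry of that symbol was not (edgeR adjusted p = 0.439). The ptpro call was lost without embryo MUT303, WLD302 or WLD303 (edgeR adjusted p from 0.0578 to 0.0691). Reads shared between these entries cannot be assigned with certainty. The podocyte surface gene podxl, which is also made by vessels, averaged 51.7 ± 3.48 CPM in 3etv and 48.9 ± 3.38 CPM in WT and was not called (edgeR adjusted p = 0.549). The podocyte markers wt1a, wt1b, nphs1 and podxl summed to between 52.3 and 60.1 CPM in 3etv and between 51.2 and 57.5 CPM in WT, most of it from podxl.

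Lhx1a is a LIM homeodomain factor of the intermediate mesoderm, from which the kidney forms, and of many neurons. It had 22.6, 23.3 and 25.7 CPM in 3etv, against 20.5, 17.0 and 17.3 CPM in WT. Every 3etv embryo was above every WT embryo, with a gap between the groups that was smaller than the range within either. The level was 1.31-fold higher in 3etv (95% interval from 1.10 to 1.55, log2 fold change 0.39 ± 0.113 (SE), edgeR adjusted p = 0.0241). The call of lhx1a was lost when embryo MUT302 (edgeR adjusted p = 0.0547), embryo MUT303 (0.0851), embryo WLD302 (0.0713) or embryo WLD303 (0.0896) was left out, and when library totals alone set the scale (0.0589). The genes lhx5, gad1b and the close paralog lhx1b, taken as markers of lhx1a neurons, summed to between 59.7 and 61.3 CPM in 3etv and between 37.0 and 45.2 CPM in WT, and all 3 were called higher. Not every listed gene of the nervous system shared this direction: pax5 (log2 fold change -0.25, edgeR adjusted p = 0.328) and en1b (-0.23, edgeR adjusted p = 0.163) were not called, with every 3etv embryo below every WT embryo. The part of neurons in the lhx1a difference was not tested.

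Of the tubule transporter genes among the 8, slc4a4a, slc12a1 and slc12a3 were called lower in 3etv, and slc20a1a was not called. At the proximal end, slc4a4a encodes an electrogenic sodium bicarbonate cotransporter that marks the proximal tubule. It was at 28.2, 31.0 and 27.0 CPM in 3etv, against 47.2, 55.7 and 47.9 CPM in WT. The lowest WT value of slc4a4a was well above the highest 3etv value, and the CV was under 10% in both groups, at 7.23% in 3etv and 9.38% in WT. Its level was 1.75-fold lower in 3etv (95% interval from 1.51 to 2.04, log2 fold change -0.81 ± 0.100 (SE), edgeR adjusted p = 0.000167). This was the smallest adjusted p of the 8 genes and rested on the largest counts, from 494 to 558 per embryo in 3etv and from 1026 to 1433 in WT.

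The phosphate transporter gene slc20a1a marks the proximal convoluted tubule. It was at 5.30, 5.89 and 3.98 CPM in 3etv, against 3.36, 3.89 and 3.72 CPM in WT. The ranges did not overlap, but embryo MUT303, the lowest of 3etv, lay just above the highest WT embryo. The log2 fold change of slc20a1a was 0.47 ± 0.196 (SE) and it was not called (edgeR adjusted p = 0.0977, unadjusted 95% interval from 0.04 to 0.89). Without embryo MUT303, slc20a1a was called higher in 3etv, at 0.62 on the log2 scale (edgeR adjusted p = 0.0454). Its paralog slc20a1b averaged 237 ± 18.9 CPM in 3etv and 236 ± 28.3 CPM in WT.

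In the distal tubule, slc12a1 and slc12a3 encode the sodium-potassium-chloride and the sodium-chloride cotransporter, the salt carriers of the early and the late distal segment. The slc12a1 transcript was at 0.505, 0.589 and 0.437 CPM in 3etv, against 1.98, 1.56 and 1.51 CPM in WT, from counts of 10, 10 and 8 in 3etv and 43, 40 and 35 in WT. The WT embryos were all at least as high as 1.51 CPM, and no 3etv embryo exceeded 0.589 CPM. This was the largest change among the 8 genes, 3.27-fold lower in 3etv (95% interval from 1.99 to 5.37, log2 fold change -1.71 ± 0.331 (SE), edgeR adjusted p = 0.00291). Only 2.66% of all tested genes had as large an absolute log2 fold change as slc12a1. By mean count slc12a1 was at percentile 12.5 of the tested genes, and this rank takes no account of its low counts.

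The slc12a3 transcript was at 4.44, 6.66 and 5.07 CPM in 3etv, against 8.65, 10.9 and 13.9 CPM in WT. The groups did not overlap, and the embryos of each group differed by more than counting error, with a CV of 21.2% in 3etv and 23.7% in WT against 10.1% and 6.16% from counting. Its level was 2.08-fold lower in 3etv (95% interval from 1.53 to 2.81, log2 fold change -1.05 ± 0.202 (SE), edgeR adjusted p = 0.00282). The counts of slc12a1 per count of slc12a3 were 0.114, 0.0885 and 0.0860 in the 3etv libraries and 0.229, 0.143 and 0.109 in the WT libraries. These ratios came close between the groups, at 0.114 in embryo MUT301 and 0.109 in embryo WLD303, and they overlapped.

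**Figure D2:**
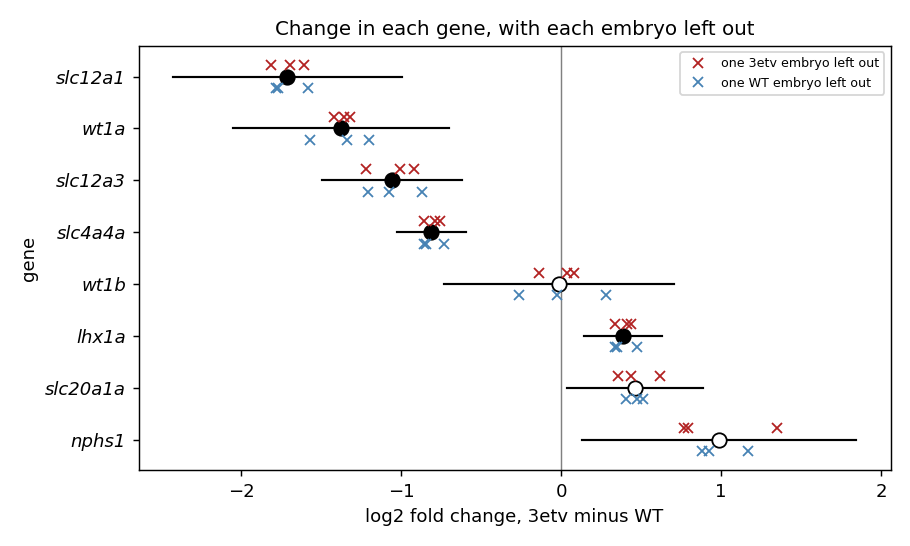
Log2 fold change of each gene, 3etv minus WT, with its unadjusted 95% interval (lines; filled circles were called, open circles were not), and the value with each 3etv embryo (red crosses) or each WT embryo (blue crosses) left out. The crosses of slc12a1, wt1a, slc12a3 and slc4a4a stay below 0, those of wt1b fall on both sides, and nphs1 has a cross at 1.35, without embryo MUT302.

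The 4 lowered genes kept their direction and their call with each embryo left out in turn. Across these fits the log2 fold change ran from -1.57 to -1.20 for wt1a, from -1.81 to -1.58 for slc12a1, from -1.22 to -0.87 for slc12a3 and from -0.86 to -0.73 for slc4a4a. The genes wt1b and nphs1, with at most 45 counts in any library, had wide 95% intervals, and a missed call does not show that their levels were alike.

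Beyond the 8 genes, 36 genes of tubule transport and tubule epithelium were examined as a list, none of them among the 8. Of these, 28 were tested: 7 were called lower in 3etv, 0 were called higher by edgeR, DESeq2 or limma-voom, and the median log2 fold change was -0.22. The share called lower was 25%, against 13.5% of all tested genes, and the share called higher was 0%, against 12.6%. At an unadjusted p under 0.05, edgeR gave 1 gene of the list higher and 11 lower. The share of all tested genes at that looser threshold was not computed, so these counts have no background beside them. With each embryo left out in turn, from 6 to 8 genes of the list were called lower.

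The organic anion transporter gene slc22a6l showed the largest change among the 28 tested genes of the list. It had 15, 20 and 17 counts in 3etv, against 113, 113 and 92 in WT, and was 4.75-fold lower in 3etv (log2 fold change -2.25 ± 0.251 (SE), edgeR adjusted p = 8.61e-05). The sodium-proton exchanger gene slc9a3.1 had 5, 6 and 11 counts in 3etv and 27, 30 and 23 in WT, and was 2.81-fold lower (edgeR adjusted p = 0.0157). Both genes were lower in every 3etv embryo than in any WT embryo. The chloride channel subunit gene bsnd, with 5, 1 and 2 counts in 3etv and 10, 12 and 28 in WT, did not pass the low-count filter and was not tested. The listed gene umodl1, also not tested, went the other way, with 11, 14 and 7 counts in 3etv and 4, 6 and 7 in WT. The call of slc9a3.1 was lost without embryo MUT301 (edgeR adjusted p = 0.0636) and without embryo MUT302 (0.0585).

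Of the bicarbonate cotransporter genes, the paralog slc4a4b fell with slc4a4a. It averaged 7.26 ± 1.57 CPM in 3etv and 13.8 ± 2.18 CPM in WT (SD, n = 3 each), 1.90-fold lower in 3etv (edgeR adjusted p = 0.00293). The transporter scaffold gene pdzk1 was 1.84-fold lower (edgeR adjusted p = 0.0125) and the sulfate transporter gene slc26a1 was 1.76-fold lower (edgeR adjusted p = 0.00863). The epithelial genes had smaller fold changes. The cadherin gene cdh17, made along the tubule and duct, averaged 13.3 ± 1.67 CPM in 3etv and 19.7 ± 3.99 CPM in WT and was 1.49-fold lower (edgeR adjusted p = 0.0181). The sodium pump subunit gene atp1a1a.4 was 1.43-fold lower, at 30.9 ± 3.73 CPM in 3etv and 44.1 ± 4.51 CPM in WT (edgeR adjusted p = 0.00582). The cdh17 call was lost without embryo MUT301 (edgeR adjusted p = 0.0691), embryo WLD302 (0.0603) or embryo WLD303 (0.0804). The endocytic receptor gene lrp2a of the proximal tubule was not called, at 57.4 ± 2.61 CPM in 3etv and 65.1 ± 1.59 CPM in WT (edgeR adjusted p = 0.122). The chloride channel gene clcnk of the distal tubule had 27, 31 and 11 counts in 3etv and 44, 46 and 54 in WT and was not called (edgeR adjusted p = 0.154). Other listed genes leaned higher in 3etv without a call, among them clcn5b (log2 fold change 0.33, edgeR adjusted p = 0.0973) and slc34a2a (0.94, edgeR adjusted p = 0.197).

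**Figure D3:**
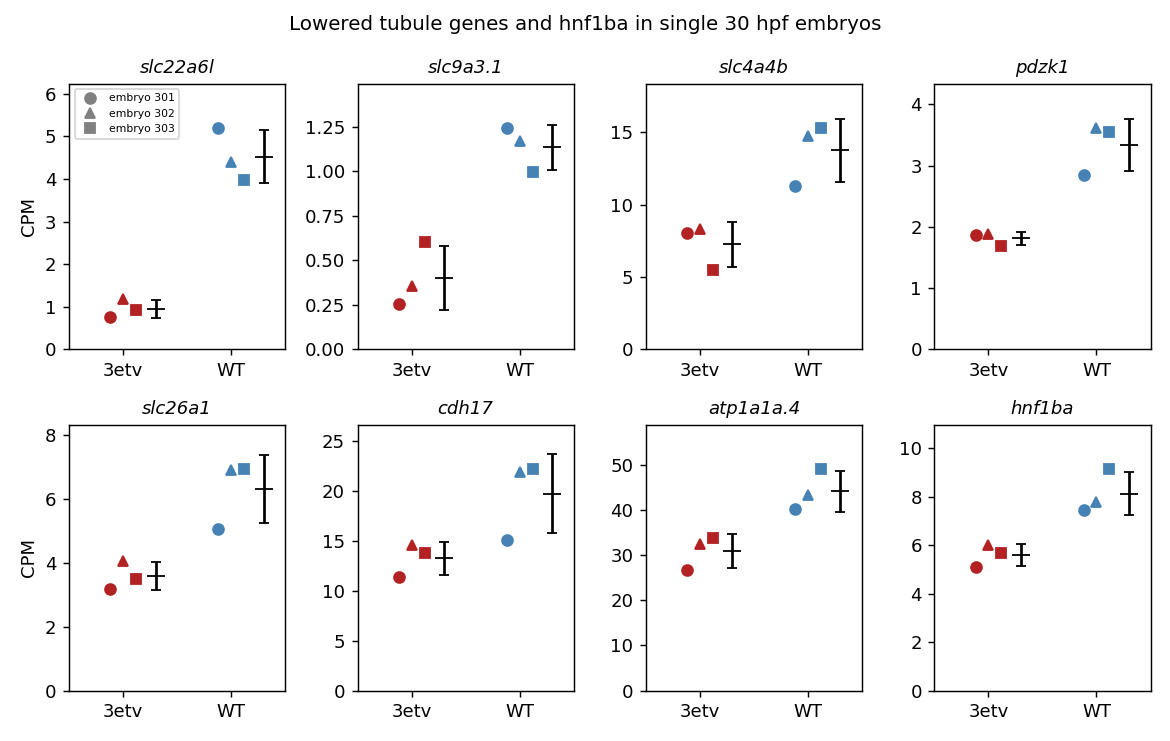
CPM in every library of the 7 genes of the tubule list that were called lower and of hnf1ba (points, 1 per embryo; black bars are means with SD over 3 embryos; 3etv on the left, WT on the right; each panel has its own axis from 0). In each panel every 3etv embryo lies below every WT embryo.

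Levels of segment markers were also summed in each library. The proximal tubule markers slc20a1a, slc4a4a, cubn and lrp2a summed to between 88.7 and 98.4 CPM in 3etv and between 120 and 127 CPM in WT. The distal tubule markers slc12a1, slc12a3 and clcnk summed to between 6.11 and 9.08 CPM in 3etv and between 12.7 and 17.8 CPM in WT. Neither pair of ranges overlapped. The distal sum came mostly from slc12a3, at 5.39 ± 1.14 CPM in 3etv and 11.2 ± 2.65 CPM in WT, so it repeats a difference given above. Its marker from outside the 8 genes, clcnk, overlapped between the groups (1.26 ± 0.619 CPM in 3etv and 2.05 ± 0.275 CPM in WT) and was not called. The proximal sum moved mostly with slc4a4a, which averaged 28.7 ± 2.07 CPM in 3etv and 50.3 ± 4.72 CPM in WT (SD, n = 3 each). The largest part of that sum was lrp2a, not called, at 57.4 ± 2.61 CPM in 3etv and 65.1 ± 1.59 CPM in WT. The endocytic receptor gene cubn was at 3.50 ± 0.376 CPM in 3etv and 3.50 ± 0.278 CPM in WT. The remaining marker, slc20a1a, went the other way without a call, at 5.06 ± 0.978 CPM in 3etv and 3.66 ± 0.270 CPM in WT. Whole embryos do not separate kidney transcripts from others in these sums. The duct epithelium markers cdh17, atp1a1a.4 and pax2a overlapped, at 74.6 to 93.0 CPM in 3etv and 91.0 to 105 CPM in WT. Much of that sum came from pax2a, a kidney and brain factor, which was at 40.0 ± 4.79 CPM in 3etv and 36.2 ± 2.57 CPM in WT and was not called (log2 fold change 0.14, edgeR adjusted p = 0.339). For cdh17 and atp1a1a.4, every 3etv embryo was below every WT embryo. Differences between the segments were not tested.

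Renal transcription factors were called in both directions. Of 21 listed factors, all 21 were tested, 3 were called lower (14.3%, against 13.5% of all tested genes) and 4 higher (19%, against 12.6%), and the median log2 fold change was -0.05. Hnf1ba, a homeodomain factor that directs tubule segment identity in zebrafish together with its paralog Hnf1bb, had 101, 102 and 104 counts in 3etv, against 162, 200 and 211 in WT. It was 1.45-fold lower in 3etv (log2 fold change -0.54 ± 0.158 (SE), edgeR adjusted p = 0.025). The hnf1ba call was lost without embryo MUT301 (edgeR adjusted p = 0.0828), embryo MUT303 (0.0571) or embryo WLD303 (0.0985). The paralog hnf1bb had 25, 42 and 26 counts in 3etv and 62, 114 and 48 in WT. The test did not call it (log2 fold change -0.88 ± 0.331 (SE), edgeR adjusted p = 0.068), and its groups overlapped. With embryos left out in turn, its log2 fold change ran from -1.21 to -0.53, and it was called lower without embryo MUT302 (edgeR adjusted p = 0.0359) and without embryo WLD303 (0.0428).

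The coactivator gene ppargc1a, which sets the border between proximal and distal segments in zebrafish, was 1.60-fold lower in 3etv, at 4.93 ± 0.381 CPM in 3etv and 7.88 ± 1.16 CPM in WT (edgeR adjusted p = 0.0115). Its call was lost without embryo WLD303 (edgeR adjusted p = 0.0533). The third lowered factor was hoxd11a, at -0.60 on the log2 scale (edgeR adjusted p = 0.0196), whose call was lost without embryo MUT301, MUT303 or WLD303. The factors called higher were lhx1b, at 0.67 (edgeR adjusted p = 0.00396), tbx2b, at 0.40 (edgeR adjusted p = 0.00563), tfap2b, at 0.39 (edgeR adjusted p = 0.0487), and gata3, at 0.33 on the log2 scale (edgeR adjusted p = 0.0443). The calls of lhx1b and tbx2b held with each embryo left out, that of tfap2b was lost without MUT302, MUT303, WLD301 or WLD303, and that of gata3 was lost without each embryo in turn except WLD302. The tfap2b call was also lost with library totals (edgeR adjusted p = 0.0926) and with a mean of at least 50 counts (edgeR adjusted p = 0.0513). It was lost as well with DESeq2 (adjusted p = 0.0507) and limma-voom (adjusted p = 0.0594). All 4 of these are also made in the nervous system, and their kidney transcripts cannot be told apart from the rest in whole embryos.

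Multiciliated cells and the cilia of the kidney were examined next. Of 17 listed symbols, 14 entries were found in the table and 13 were tested, with 6 called higher, 2 called lower and a median log2 fold change of 0.29. The share called higher was 46.2%, against 12.6% of all tested genes, and the share called lower was 15.4%, against 13.5%. The ciliary master factor gene foxj1a had 21.5 ± 4.68 CPM in 3etv and 15.1 ± 1.80 CPM in WT (edgeR adjusted p = 0.0309), but its groups overlapped. The intraflagellar transport gene ift88 was 1.54-fold higher (edgeR adjusted p = 0.00691), the centrin gene cetn2 was 1.37-fold higher (edgeR adjusted p = 0.0442), and the Notch ligand gene jag2b was 1.23-fold higher in 3etv (edgeR adjusted p = 0.0308). The entry for cimap1b, a marker of renal multiciliated cells formerly named odf3b, had 17, 19 and 19 counts in 3etv and 6, 7 and 4 in WT (edgeR adjusted p = 0.00334). The count table lists that entry under the symbol trim35-30, which it also gives to another gene, so its identity is uncertain. This uncertain entry is counted among the 6 called higher. The tektin genes went opposite ways, with tekt1 at 1.29 on the log2 scale (edgeR adjusted p = 0.0423) and tekt4 at -1.07 (edgeR adjusted p = 0.0255). The polycystin gene pkd2 was 1.38-fold lower (edgeR adjusted p = 0.0306). Except for those of ift88 and the cimap1b entry, each of these calls was lost in at least 4 of the 6 fits that left out an embryo. The count called higher was 2 when library totals alone set the scale, and 2 without embryo MUT302, 3 without embryo MUT303 and 2 without embryo WLD302. Most of these genes are also transcribed in ciliated cells outside the kidney, which whole embryos do not separate.

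**Figure D4:**
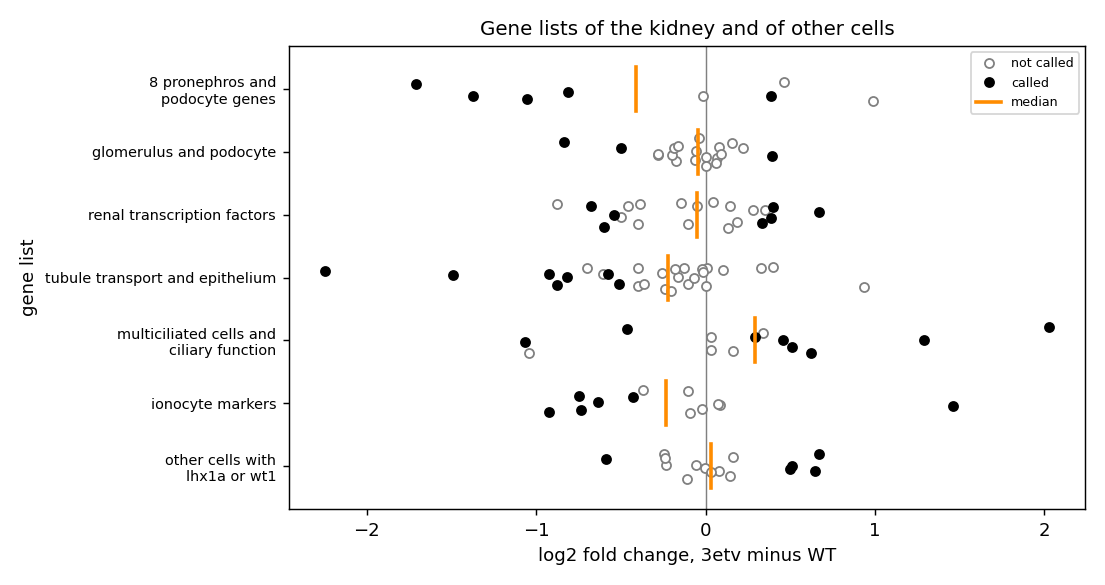
Log2 fold change, 3etv minus WT, of every tested gene in the 8 pronephros and podocyte genes and in 6 lists (filled circles were called, open circles were not, orange bars are medians; vertical scatter is for display). Called genes of the tubule list all lie below 0, and those of the transcription factor list lie on both sides.

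Skin ionocytes share transporter families with the kidney tubule, and their markers were examined beside the tubule genes. Of 13 listed ionocyte genes, 12 were tested, 5 were called lower and 1 higher, and the median log2 fold change was -0.24. The share of ionocyte genes called lower was 41.7%, against 25% of the tubule list and 13.5% of all tested genes. The share called higher was 8.33%, against 12.6% of all tested genes. The lowered ones were slc4a4b, which is on both lists, the carbonic anhydrase genes ca2 (1.66-fold lower, edgeR adjusted p = 0.00367) and ca15a (1.68-fold lower, edgeR adjusted p = 0.0308), and the sodium pump genes atp1a1a.2 and atp1b1b (1.35-fold and 1.55-fold lower, edgeR adjusted p = 0.00997 and 0.0252). The call of ca15a was lost without each 3etv embryo in turn and without WLD303, and that of atp1b1b without MUT303, WLD302 or WLD303. The sodium-chloride cotransporter gene of ionocytes, slc12a10.2, was higher in 3etv, with 16, 26 and 16 counts in 3etv and 7, 9 and 11 in WT (edgeR adjusted p = 0.0199), the opposite direction to its kidney relative slc12a3. Its call was lost without embryo MUT302 (edgeR adjusted p = 0.103), embryo WLD301 (0.0568) or embryo WLD302 (0.0628). The ionocyte markers chosen for a sum were foxi3a, foxi3b, slc12a10.2, trpv6 and rhcgb. They came to between 9.997 and 11.2 CPM in 3etv and between 10.1 and 10.4 CPM in WT, ranges that overlapped. None of them was at 0 in all libraries. Of the called genes, this sum holds slc12a10.2, which was higher, and none of the 5 lowered ones, so it depends on the markers chosen. The largest part of the sum was foxi3b, at 5.71 ± 0.620 CPM in 3etv and 6.06 ± 0.857 CPM in WT, and rhcgb was too low to be tested.

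Of 15 genes of other cells that make lhx1a or a wt1 gene, 4 were called higher (26.7%, against 12.6% of all tested genes) and 1 lower (6.67%, against 13.5%), with a median log2 fold change of 0.03. The 4 were the interneuron genes lhx5 (1.42-fold, edgeR adjusted p = 0.00701), lhx1b, gad1b (1.57-fold, edgeR adjusted p = 0.0024) and slc32a1 (1.41-fold, edgeR adjusted p = 0.0136), which all had higher levels in 3etv. The lowered gene was tbx18, a factor of the heart's outer layer, which also makes wt1 transcripts, at 6.59 ± 1.03 CPM in 3etv and 9.90 ± 1.46 CPM in WT (edgeR adjusted p = 0.0228). The 10 genes of the list that were not called included tcf21 (log2 fold change -0.05, edgeR adjusted p = 0.927), hand2 (-0.11, edgeR adjusted p = 0.668) and aldh1a2 (0.08, edgeR adjusted p = 0.54). The slc32a1 call was lost without MUT303 or WLD303, and the tbx18 call without MUT302, MUT303 or WLD303. The part of tbx18-expressing cells in the wt1a difference was not tested.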

How the data were processed

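Single 30 hpf embryos, 3 labelled 3etv and 3 labelled WT, were each sequenced as a strand-specific poly-A library, per the labels' protocols. The authors deposited raw counts per Ensembl gene; STAR, HTSeq and the build GRCz11 are named in the submitters' processing notes, and versions, annotation release and strand setting are not given in the sources used here, so overlapping and antisense genes are uncertain. The table's header lacks a tab between MUT302 and MUT303; read with it, every column matched a sample title. Reads in no gene were 55.3% to 55.4% of each 3etv library and 53.6% to 54.3% of each WT library. Reads with several alignments were 5.14% to 5.32% in 3etv and 6.1% to 6.5% in WT, so both measures separated the groups. The part of this separation in the results was not tested. Both kinds of read, and ambiguous reads, stayed out of library sizes.

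Genes were kept by filterByExpr, scaled by TMM and tested on genotype alone with edgeR 4.0.16 (R 4.3.3). SE was derived from the fold change and the F statistic; 95% intervals use the test's degrees of freedom and are not adjusted. Libraries of a group differed beyond sampling noise, and more so in WT (chi-square per degree of freedom from 6.32 to 9.56 in 3etv and from 20.1 to 49.0 in WT). Floors and counting CVs cover counting error only. Alternatives were DESeq2 size factors, library totals, no filter, a mean of at least 50 counts, DESeq2 1.42.0, limma-voom (limma 3.58.1), a replicate block and each embryo left out. The tests were checked on simulated data with known changes.

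The 8 genes and the lists were chosen with earlier results of these data known. Named are the 8, and the called genes of each list, at most 6 by size of change; atp1a1a.4, cetn2, jag2b, gata3 and all genes named without a call were chosen after their values were seen. List symbols were matched to the table's symbols, 2 of them (cimap1b and mcidas) through a table of gene IDs, and 3 stayed unmatched. One further gene of the glomerulus list and the podocyte markers is not reported here.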

Additional observations from a re-analysis of the deposited data

How the results depend on the processing

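The calls of wt1a, slc12a1, slc12a3 and slc4a4a held under every alternative in which each was tested. Of 100 alternative values for the 8 genes, 88 kept direction and call, 5 lost the call, all for lhx1a, and 2 gained it. The count of the 8 called lower stayed at 4 except at 2 with a mean of at least 50 counts, where only 4 of the 8 were tested. The count called higher was 0 with library totals, and ran from 0 to 1 with embryos left out; without embryo MUT302 the gene called was nphs1 and without embryo MUT303 it was slc20a1a, in place of lhx1a. The log2 fold change of wt1b, near 0, turned positive with limma-voom (0.053), with the replicate block (0.022) and with embryos left out (-0.26 to 0.28), and that of slc20a1b, also near 0, turned negative with library totals (-0.073) and ran from -0.092 to 0.061 with embryos left out. The log2 fold change of cubn, also near 0, turned negative with library totals (-0.070) and ran from -0.079 to 0.067 with embryos left out.

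Over the glomerulus, transcription factor, tubule and multiciliated lists together, 82 genes were tested. Of these, 11 were called higher and 14 lower, against 12.6% and 13.5% of all tested genes. The count called higher was 5 with library totals, 7 with the replicate block and from 5 to 8 with embryos left out. The count called lower ran from 10 to 17 over all alternatives. Multiciliated genes called higher, 6 in all, were 2 with library totals and from 2 to 4 with embryos left out. Genes called higher in the whole table were 2502, and from 1643 to 2266 with embryos left out. Library totals moved the median change over all genes to -0.08 on the log2 scale, and 34.2% rather than 48.3% of calls were higher. The numbers in the titles did not pair the embryos (correlations of deviations -0.0694, 0.0856 and -0.111), and the block changed no call of the 8; it lost those of tfap2b, foxj1a, gata3 and cetn2 and gained those of hnf1bb and the aquaporin gene aqp3a. Among the other genes examined singly, direction and call were unchanged in 522 of 618 alternative fits. The causes of these shifts were not tested. Counts were lowest for wt1a, wt1b, nphs1 and slc12a1, at most 67 per library, which limits the precision of these values; the part of depth in the missed calls of wt1b and nphs1 was not tested.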
